A study of Mus musculus with 8 samples.

Results

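Chromatin accessibility was examined at 10 genes that drive or serve cell division: the cyclins Ccna2, Ccnb1, Ccnd1, Ccnd2, Ccnd3, Ccne1 and Ccne2, the transcription factor Myc, the mitotic kinase Aurka and its scaffold Nedd9. The locus of a gene was its body together with all sequence within 10 kb of an annotated transcription start site (TSS; GENCODE M21). All 10 genes were found among the 21755 protein-coding genes of the annotation, and all 10 had a promoter peak, one that reached to 1 kb or nearer of a TSS, in at least 1 library, as did 14571 protein-coding genes in all. Their loci held 315 of the 546932 ATAC-seq peaks of the series. Merging peaks that overlapped or touched gave 76 regions in these loci, of 183173 in the genome.

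Cyclins are the regulatory subunits of cyclin-dependent kinases (CDKs). The D cyclins bind Cdk4 and Cdk6 in G1 in response to mitogens, the E cyclins bind Cdk2 at the entry into S phase, cyclin A2 acts in S phase and G2, and cyclin B1 with Cdk1 starts mitosis. Myc is a transcription factor that promotes growth and proliferation, and cyclin D1 is a familiar oncogene of the mammary gland. Aurka (Aurora A) builds the mitotic spindle, and Nedd9 is an adaptor of focal adhesions that also binds and helps to activate Aurora A.

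The ATAC-seq libraries came from cell lines derived from mammary tumors of FBV/N mice carrying the polyomavirus middle T oncogene (PyMT), either WT or with Lats1, a Hippo pathway kinase, deleted (Lats1-CKO). All 4 groups came from tumors driven by PyMT under the MMTV promoter. The lines were sorted into luminal (EpCAM-high, CD49f-high) and basal-like (EpCAM-low, CD49f-high) subpopulations and briefly expanded, so that cultured cells and not tissue were measured. The WT libraries were BM1 and BM5 for luminal and BM2 and BM6 for basal-like cells. The Lats1-CKO libraries were BM3 and BM7 for luminal and BM4 and BM8 for basal-like cells. The study calls the 2 libraries of a group biological replicates. Nothing read here says whether they came from separate tumors or cultures, and p-values measure only the spread between these libraries.

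The lists held 51497 to 99022 peaks per library, except for BM3, which held 14753 and stood apart. Results are therefore given with and without BM3. The depth of each library is unknown, and the 3 other Lats1-CKO libraries (86279, 93467 and 99022 peaks) exceeded the WT libraries in number of peaks (51497 to 72685). The scores of peaks are not comparable between libraries. A peak was therefore described by its percentile, the rank of its score among the peaks of its own library, and a missing peak was set to 0. The same place from the top gives a lower percentile in a short list such as that of BM3. With no peak called, a closed site and a shallow library cannot be told apart. The promoter of Lats1 checks no label here, because a deletion within the gene need not remove its promoter: its percentile was 53.6 to 62.4 in WT libraries and 74.7 to 81.5 in BM4, BM7 and BM8, and BM3 had no peak there. Of 7 luminal markers, 4 to 7 had a promoter peak in a luminal and 3 to 6 in a basal-like library. Their summed percentile was 207 to 503 in luminal and 174 to 390 in basal-like libraries. Among the 7 basal markers, Trp63 had no promoter peak in any library and Krt5 had one in BM7 alone, and the summed percentile was 8.28 to 244 in luminal and 151 to 218 in basal-like libraries. The accessibility of these basal genes thus did not mark the basal-like libraries.

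The promoters of 5 of the 10 genes (Aurka, Ccnb1, Ccnd3, Ccne1 and Nedd9) were in the RefSeq table of GRCm38.p6 used here, Ccnd3 with 2 of them. Ccna2, Ccnd1, Ccnd2, Ccne2 and Myc were not. The 250 bases before the start are shown for the 5 promoters that overlapped the strongest promoter peak of their gene. Letters searched on both strands stand in capitals. These were the CCAAT box (CCAAT), the E2F site (TTTCCCGC, TTTGGCGC, TTTGCCGC or TTTCGCGC), the cell cycle homology region (TTTGAA), the E-box of Myc (CACGTG), the AP-1 site (TGANTCA) and the TEAD site (GGAATG).
Ccnb1 promoter (chr13:100786487-100786736, minus strand): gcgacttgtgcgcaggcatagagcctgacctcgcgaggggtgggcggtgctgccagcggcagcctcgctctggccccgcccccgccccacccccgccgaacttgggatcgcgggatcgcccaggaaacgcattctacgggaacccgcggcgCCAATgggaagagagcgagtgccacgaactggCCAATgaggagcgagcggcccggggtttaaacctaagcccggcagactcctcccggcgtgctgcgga
Aurka promoter (chr2:172370571-172370820, minus strand): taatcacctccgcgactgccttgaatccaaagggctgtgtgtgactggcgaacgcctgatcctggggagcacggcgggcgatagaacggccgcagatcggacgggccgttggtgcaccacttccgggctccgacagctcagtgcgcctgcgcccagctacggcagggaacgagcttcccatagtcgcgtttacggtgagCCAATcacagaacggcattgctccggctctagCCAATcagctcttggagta
Ccne1 promoter (chr7:38107491-38107740, minus strand): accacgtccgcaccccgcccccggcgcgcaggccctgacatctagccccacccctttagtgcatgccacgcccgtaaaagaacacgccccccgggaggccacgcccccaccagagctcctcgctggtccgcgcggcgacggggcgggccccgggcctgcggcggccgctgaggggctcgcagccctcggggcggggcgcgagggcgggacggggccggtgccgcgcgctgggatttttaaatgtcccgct
Ccnd3 downstream promoter (chr17:47593217-47593466, plus strand): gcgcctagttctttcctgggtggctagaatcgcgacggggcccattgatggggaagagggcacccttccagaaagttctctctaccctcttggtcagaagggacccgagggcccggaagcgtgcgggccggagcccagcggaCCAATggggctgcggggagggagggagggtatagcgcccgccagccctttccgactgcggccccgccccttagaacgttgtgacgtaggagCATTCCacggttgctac
Nedd9 internal promoter (chr13:41359002-41359251, minus strand): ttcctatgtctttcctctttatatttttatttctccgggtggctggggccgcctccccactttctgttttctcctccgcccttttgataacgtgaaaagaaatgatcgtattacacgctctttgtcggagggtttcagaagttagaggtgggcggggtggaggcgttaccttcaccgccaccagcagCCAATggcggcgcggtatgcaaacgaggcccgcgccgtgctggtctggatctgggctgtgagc
The 2 mitotic genes shown, Ccnb1 and Aurka, each had 2 CCAAT boxes in these windows, and the downstream promoter of Ccnd3 and the internal promoter of Nedd9 had 1 each. In all, 4 of the 6 windows held CCAAT, against 33.8% of the 32851 windows of the table. The TEAD letters occurred in 1 of the 6, the downstream promoter of Ccnd3 (12.6% of all windows). None of the 6 held the letters for E2F (1.86% of all windows), the cell cycle homology region (16%), the E-box (6.02%) or AP-1 (6.75%). The GC content was 76% in Ccne1, 69.6% in Ccnb1, 64.8% in the downstream promoter of Ccnd3, 61.6% in Aurka and 54.8% in Nedd9, with a median of 52.4% over all windows. A match describes the letters only.

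Ccna2 had the strongest peak of the 10 genes in every library. A single region of 502 bp over its TSS (chr3:36571880-36572381, mm10) held a peak in all 8 libraries, and no other peak was called in its locus of 25306 bp. The percentile was 99.9 and 99.4 in WT luminal, 99.6 and 99.4 in WT basal-like, 97.1 (BM3) and 99.7 (BM7) in Lats1-CKO luminal, and 99.8 and 99.5 in Lats1-CKO basal-like cells. By rank it stood between place 71 (BM1) and place 448 (BM8) from the top of its library. Its peak was 356 to 484 bp wide, 2.58 to 3.54 times the median width of the peaks of the same library.

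**Figure D1:**
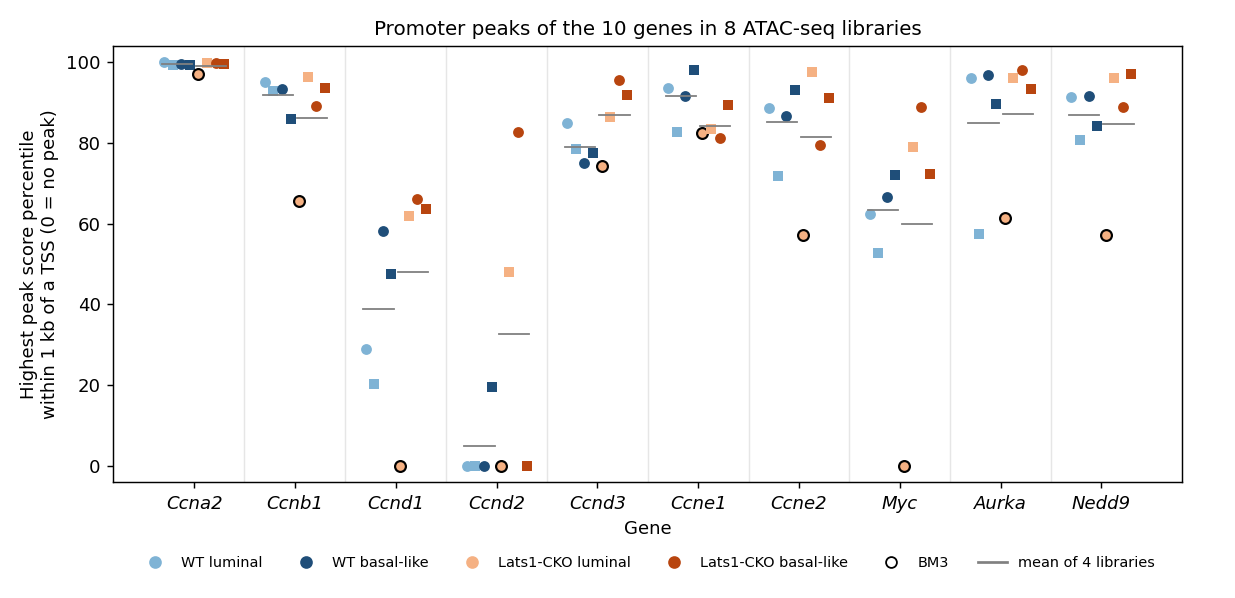
Highest score percentile of a peak within 1 kb of a TSS (y axis; 0 where no peak was called) for each of the 10 genes (x axis) in the 8 libraries. Points are single libraries (circles, first, and squares, second library of a group), colors the 4 groups, grey lines the mean of 4 WT or 4 Lats1-CKO libraries, and BM3 is ringed in black. Ccna2 lies at 97.1 or above everywhere, while Ccnd1, Ccnd2 and Myc lack a promoter peak in BM3.

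The promoter of Ccnb1 was also open in all 8 libraries. Its peak (chr13:100786470-100786820) was at percentiles 95 and 92.9 in WT luminal, 93.4 and 86 in WT basal-like, 65.7 (BM3) and 96.4 (BM7) in Lats1-CKO luminal, and 89.2 and 93.7 in Lats1-CKO basal-like cells. Apart from BM3, the libraries lay within 86 to 96.4, with WT and Lats1-CKO intermingled. By rank from the top BM3 (place 5002) lay within the range of the others, from 3326 (BM7) to 9299 (BM4). A region 3' of Ccnb1 (chr13:100775779-100776024), with a peak in all libraries but BM3, lay on the TSS of Cenph, which encodes a centromere protein, and cannot be assigned to Ccnb1.

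Aurka shared its main region (chr2:172370451-172370762) with the TSS of Cstf1, a cleavage stimulation factor gene that starts beside it. The percentile there was 96.1 (BM1) and 57.5 (BM5) in WT luminal, 96.7 and 89.6 in WT basal-like, 61.3 (BM3) and 96.1 (BM7) in Lats1-CKO luminal, and 98.1 and 93.3 in Lats1-CKO basal-like cells. In percentile, BM3 and BM5 were low and the other 6 lay at 89.6 or above. By rank from the top BM3 (place 5652) lay between BM6 (5356) and BM8 (6656), and BM5 (24807) was last. Both low libraries were luminal, but so were BM1 and BM7, at 96.1 each. The region therefore varied as much within the luminal groups as between any groups, and its signal may belong to either gene.

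The E cyclins were open in every library. Ccne1 had its main region (chr7:38107371-38108110) over the first exon, 740 bp wide, the widest main region of the 10 genes. The percentile was 93.7 and 82.7 in WT luminal, 91.7 and 98 in WT basal-like, 82.4 (BM3) and 83.4 (BM7) in Lats1-CKO luminal, and 81.3 and 89.5 in Lats1-CKO basal-like cells. Only the lowest WT library, BM5, lay within the Lats1-CKO range of percentiles. By rank from the top BM3 (place 2576) was ahead of BM1 (4564), BM2 (5844) and BM5 (10108). The mean was 84.2 ± 3.68 (SD, n = 4) in Lats1-CKO and 91.5 ± 6.45 (SD, n = 4) in WT, a difference of -7.34 with p = 0.0857 by the exact two-sided permutation test and an adjusted p of 1.

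Ccne2 had its main region (chr4:11191086-11191372) just upstream of the first TSS. The highest promoter percentile of the gene was 88.7 and 71.9 in WT luminal, 86.6 and 93 in WT basal-like, 57.3 (BM3) and 97.5 (BM7) in Lats1-CKO luminal, and 79.5 and 91.1 in Lats1-CKO basal-like cells. The genotypes overlapped throughout. A distal region 4606 bp upstream of the first TSS (chr4:11186686-11186804), picked after its values were seen, was at 82.8 in BM7 and 77.4 in BM8, at 18.4 to 46.2 in the 4 WT libraries, and absent from BM3 and BM4.

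Of the D cyclins, Ccnd3 was the most accessible. Its strongest region (chr17:47593254-47593794) lay at a downstream TSS, 88473 bp from the first, and had a peak in all 8 libraries. The percentile was 84.9 and 78.6 in WT luminal, 75 and 77.5 in WT basal-like, 74.3 (BM3) and 86.3 (BM7) in Lats1-CKO luminal, and 95.6 and 91.8 in Lats1-CKO basal-like cells. In percentile, BM4, BM7 and BM8 were above all WT libraries and BM3 was below them. By rank from the top the order differed. BM3 (place 3752), BM4 (3798) and BM8 (8088) were ahead of all WT libraries (10950 to 17494), and BM7 (12771) was among them. The first TSS of Ccnd3 (chr17:47504994-47505231) was weaker, with a peak in 6 libraries at 37.7 to 83.8. The regions 2678 and 3059 bp upstream of it lay at the TSS of Taf8, a TFIID subunit gene, and cannot be assigned to Ccnd3.

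Ccnd1 had a weaker promoter. The highest percentile within 1 kb of a TSS was 29 and 20.4 in WT luminal, 58.2 and 47.6 in WT basal-like, 62 in BM7 (Lats1-CKO luminal), and 66.1 and 63.6 in Lats1-CKO basal-like cells, and BM3 had no peak. The 2 WT luminal libraries were thus the lowest of the 7 with a peak. The peak over the first exon (chr7:144939682-144939900) gave this value in every such library but BM4 and BM7, where an intronic peak (chr7:144937580-144937794) was higher. That second region was at 66.1, 62 and 32.7 in BM4, BM7 and BM8, at 18.8 in BM1, and had no peak in the other 4 libraries. In 5 of the 7 libraries the strongest peak of the locus was farther out, 1754 bp upstream of the first TSS (chr7:144941548-144941810), at 71.9 to 78.4, and this region, at 51.1 in BM2 and 60.4 in BM4, had the highest mean of the locus. Within 5 kb of a TSS in place of 1 kb, the difference between genotypes was -13.3 (p = 0.771 by the exact permutation test). The upstream peak then gave the value of both WT luminal libraries, at 72.1 and 71.9. BM3 had no peak and counted as 0 in this difference. The other Lats1-CKO libraries were at 66.1 to 78.4 and the WT libraries at 58.2 to 72.8.

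Ccnd2 had the fewest promoter peaks. The percentile at its promoter (chr6:127150943-127151199) was 82.7 in BM4 (Lats1-CKO basal-like), 48 in BM7 (Lats1-CKO luminal) and 19.6 in BM6 (WT basal-like), and the other 5 libraries, both WT luminal libraries among them, had no peak. With most values at 0, the spread was as large as the mean, with 32.7 ± 40.3 (SD, n = 4) in Lats1-CKO and 4.91 ± 9.82 (SD, n = 4) in WT. This difference of 27.8 was 7.86 within 5 kb of a TSS (p = 0.743 by the exact permutation test). More libraries had peaks in the 2 regions within the gene. The region with the highest mean (chr6:127147813-127147966) had peaks in 5 libraries, at 48.6 to 69.5, and the other (chr6:127142169-127142303) in 6, at 28.5 to 61.6. BM3 had no peak in the locus.

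Myc had 7 regions in a locus of 22032 bp, 3.18 per 10 kb and the densest of the 10 loci. The highest promoter percentile was 62.5 and 52.7 in WT luminal, 66.6 and 72.1 in WT basal-like, 78.9 in BM7 (Lats1-CKO luminal), and 88.8 and 72.2 in Lats1-CKO basal-like cells, with no peak in BM3. The lowest of BM4, BM7 and BM8 (72.2) was close to the highest WT value (72.1). The value did not come from 1 site. It was set by a region 1830 bp downstream of the first TSS (chr15:61987060-61987381) in BM1, BM2, BM4 and BM5, and by one 912 bp upstream of it (chr15:61984382-61984576) in BM6, BM7 and BM8. The upstream region was at 37.7 in BM1 and had no peak in BM5 (WT luminal), was at 63.3 and 72.1 in WT basal-like cells, and was at 78.9, 81.2 and 72.2 in BM7, BM4 and BM8. BM3 had no peak there. All basal-like libraries and BM7 thus stood above the other 3 luminal libraries. The downstream region had another order, with 88.8 in BM4 and 18.7 in BM6, and the TSS itself (chr15:61985431-61985679) was at 25.3 to 57.4 in 6 libraries.

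**Figure D2:**
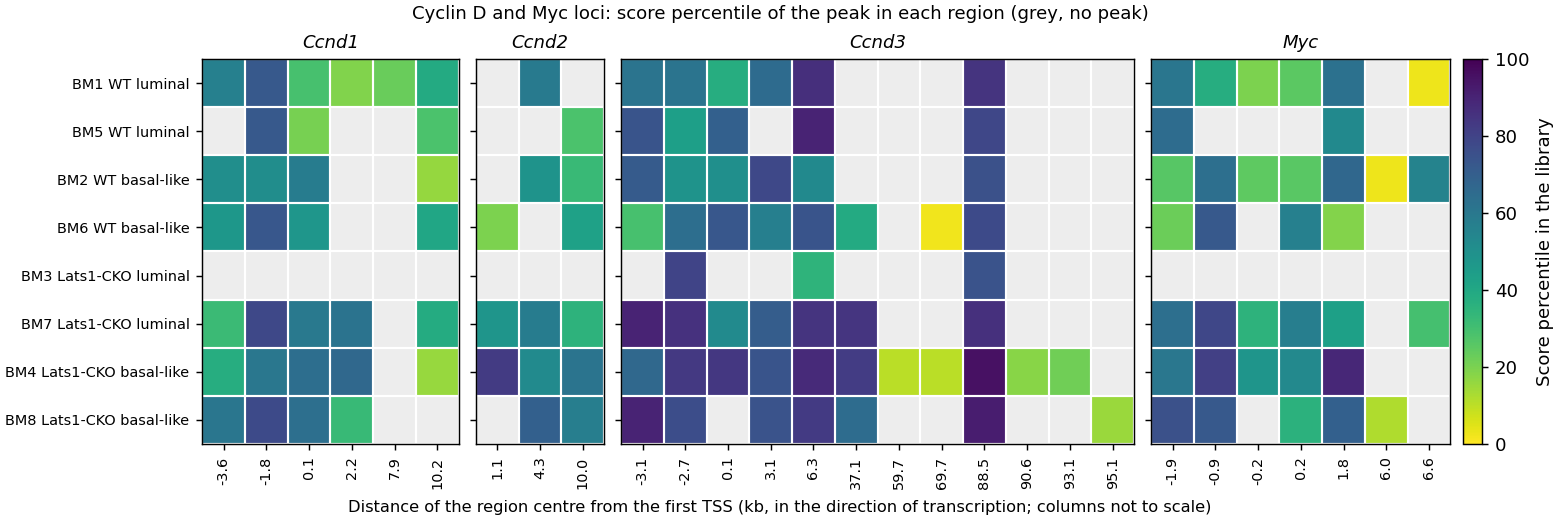
Score percentile (color, 0 to 100; grey where no peak was called) of the peak in each merged region of the Ccnd1, Ccnd2, Ccnd3 and Myc loci (columns, labelled by the distance of the region's centre from the first TSS in kb) in the 8 libraries (rows). The row of BM3 is empty for Ccnd1, Ccnd2 and Myc and holds 3 peaks in Ccnd3, and the Myc region 912 bp upstream is at 63.3 to 81.2 in the 4 basal-like libraries and BM7, at 37.7 in BM1 and without a peak in BM3 and BM5.

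Nedd9 was the largest locus, with 187782 bp and 33 regions, or 1.76 per 10 kb. Its strongest region (chr13:41358804-41359188) lay at an internal TSS, 128366 bp downstream of the first. The percentile there was 91.3 and 80.7 in WT luminal, 91.5 and 84.1 in WT basal-like, 57.3 (BM3) and 96 (BM7) in Lats1-CKO luminal, and 88.8 and 97.1 in Lats1-CKO basal-like cells. In percentile, BM7 and BM8 were above all WT libraries, BM4 was among them and BM3 was below. By rank from the top BM3 (place 6232) was among the WT libraries (5962 to 11324). No peak was called within 1 kb of the first TSS, and the region nearest to it was 10392 bp inside the gene. A pair of neighboring intronic regions about as strong (chr13:41331113-41331359 and chr13:41331785-41332180) had peaks in 7 and 8 libraries, at 73.3 to 93.6 and 36 to 94.7.

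Most regions of Nedd9 lacked a peak in some library, as did most regions of the genome. Of the 33, 14 had a peak in 1 library only (42.4%), and 3 had a peak in all 8. The share in 1 library only was 50% of the 4 regions of Ccnb1 and 33.3% of the 12 of Ccnd3. It was 25% in Aurka, 16.7% in Ccnd1 and 0% in Ccna2, Ccnd2, Ccne1, Ccne2 and Myc. The share of all regions with a peak in 1 library only was not counted. Peaks numbered 15 and 12 in WT luminal, 10 and 10 in WT basal-like, 3 (BM3) and 15 (BM7) in Lats1-CKO luminal, and 15 and 19 in Lats1-CKO basal-like cells. When each library was cut to its 50000 best-scoring peaks, they numbered 9, 12, 5 and 10 in WT and 3, 8, 6 and 14 in Lats1-CKO libraries, with BM8 the highest. One region (chr13:41431836-41432111), 55388 bp inside the gene, had peaks in BM4 (32.7), BM7 (35.4) and BM8 (74.3) and in no WT library. It was the single region among the 76 with no WT peak and at least 3 Lats1-CKO peaks, a pattern of 1.51% of all regions. BM7 and BM8 shared a peak that no WT library had in 4 regions, all in Nedd9. The strongest of them (chr13:41352275-41352701), picked after its values were seen, was at 61.2 in BM7 and 96.4 in BM8. These 4 were 12.1% of the Nedd9 regions and 5.26% of the 76, against 5.82% of all regions. Of 7 regions with peaks in WT libraries only, 5 were in Nedd9 (15.2% of its regions, against 16.5% of all regions).

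The sequences of the 2 Nedd9 regions and of the upstream Ccnd1 region are shown, the former because no WT library had a peak there and the latter because it had the highest mean of the Ccnd1 locus. They were read from GRCm38.p6 in the direction of the gene, whole for the first and the third and as the central 300 bases for the second, with the same letters in capitals.
Nedd9 intron, 3 Lats1-CKO libraries (chr13:41431836-41432111, minus strand): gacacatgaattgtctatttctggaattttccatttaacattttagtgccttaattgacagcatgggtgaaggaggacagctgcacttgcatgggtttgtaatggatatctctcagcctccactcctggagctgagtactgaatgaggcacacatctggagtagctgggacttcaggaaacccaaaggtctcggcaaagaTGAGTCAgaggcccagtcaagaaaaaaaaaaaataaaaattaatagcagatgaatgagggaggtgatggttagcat
Nedd9 intron, BM7 and BM8 (chr13:41352339-41352638, minus strand): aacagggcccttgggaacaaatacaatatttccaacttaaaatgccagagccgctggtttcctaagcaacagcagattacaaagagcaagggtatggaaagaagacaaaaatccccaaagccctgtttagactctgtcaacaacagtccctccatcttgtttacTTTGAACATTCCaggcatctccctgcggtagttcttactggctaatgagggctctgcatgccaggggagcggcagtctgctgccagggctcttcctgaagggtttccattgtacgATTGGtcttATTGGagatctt
Ccnd1 upstream (chr7:144941548-144941810, minus strand): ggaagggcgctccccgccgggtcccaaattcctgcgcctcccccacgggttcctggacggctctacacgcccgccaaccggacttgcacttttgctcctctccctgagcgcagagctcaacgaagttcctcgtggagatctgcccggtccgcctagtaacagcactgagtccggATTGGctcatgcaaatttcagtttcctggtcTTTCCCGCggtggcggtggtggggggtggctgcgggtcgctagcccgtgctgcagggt
The first Nedd9 region held 1 AP-1 site. The second held CCAAT 2 times, and the letters of the cell cycle homology region beside those of TEAD. The Ccnd1 region held 1 E2F site and 1 CCAAT box. Over the central 200 bases of regions more than 1 kb from a TSS, AP-1 letters occurred in 10 of the 49 regions of the 10 loci and in 29.2% of 148348 such regions of the genome. TEAD letters occurred in 13 (16.9% of all), CCAAT in 12 (23.8%), TTTGAA in 7 (12.9%), the E-box in 2 (3.3%) and E2F letters in 1, the Ccnd1 region (0.358%). In Nedd9 alone, AP-1 letters occurred in 5 and TEAD letters in 9 of 30 regions.

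**Figure D3:**
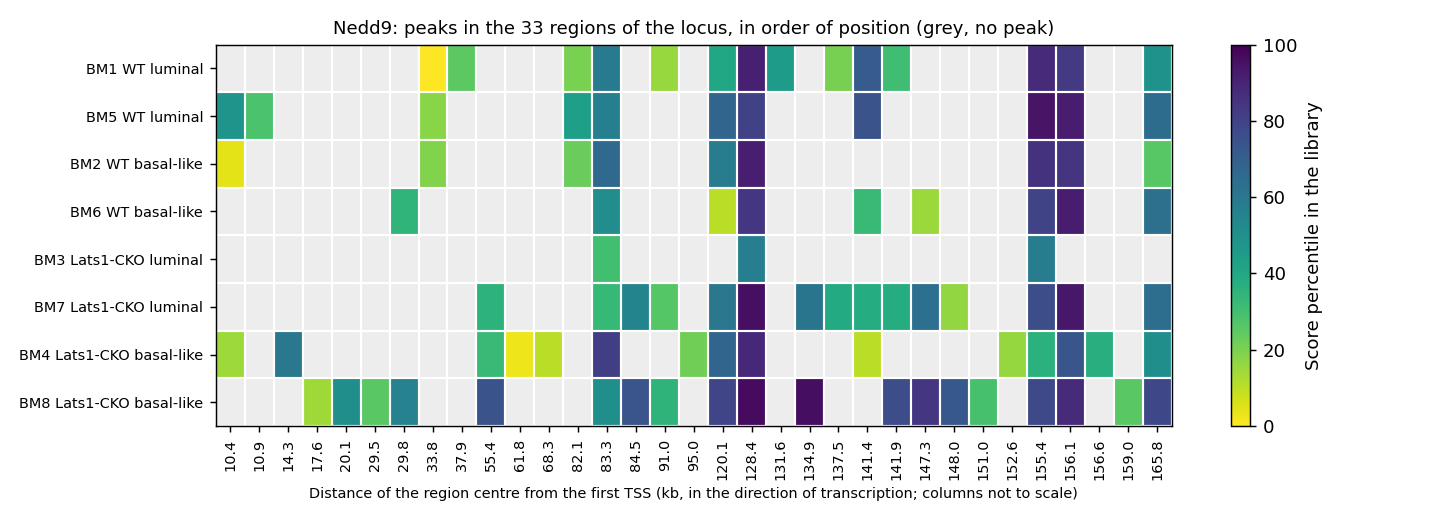
Score percentile (color, 0 to 100; grey where no peak was called) of the peak in each of the 33 merged regions of the Nedd9 locus (columns, labelled by the distance of the region's centre from the first TSS in kb) in the 8 libraries (rows). The column at the internal TSS (128366 bp) is dark in 7 libraries and paler in BM3, and 4 columns are filled in BM7 and BM8 and in no WT library.

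Counted over all 10 loci, peaks numbered 44 and 32 in WT luminal, 39 and 38 in WT basal-like, 11 (BM3) and 51 (BM7) in Lats1-CKO luminal, and 50 and 50 in Lats1-CKO basal-like cells. Without BM3, the Lats1-CKO libraries (50 to 51) were above the WT libraries (32 to 44). Relative to the peaks of the library this order was lost, with 5.05 to 5.8 per 10000 peaks in BM4, BM7 and BM8 and 5.44 to 7.38 in WT libraries, and with 7.46 in BM3. When each library was cut to its 50000 best-scoring peaks, the counts overlapped, with 33, 35 and 39 in BM4, BM7 and BM8 and 29 to 37 in WT libraries. Their means were 35.7 for these 3 libraries and 32.2 for WT.

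**Figure D4:**
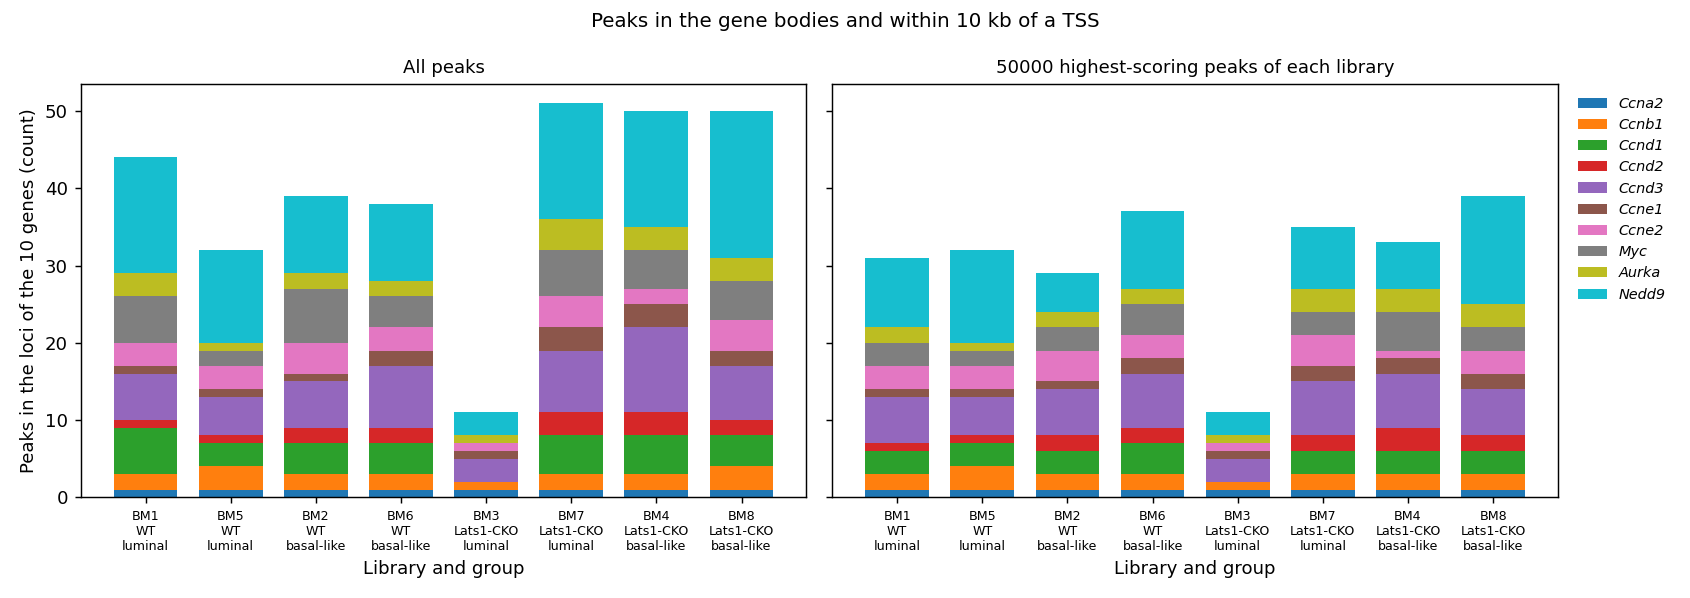
Peaks in the loci of the 10 genes (stacked bars, count on the y axis, colors for genes) in each library (x axis, with its group), for all peaks on the left and for the 50000 highest-scoring peaks of each library on the right (BM3 has fewer and is shown whole). BM4, BM7 and BM8 hold 50 to 51 peaks on the left and 33 to 39 on the right, where WT libraries hold 29 to 37.

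Patterns that followed the groups were rare in the 10 loci, as they were among all regions. Peaks in all 8 libraries were found in 11 of the 76 (14.5%, against 5.95% of all regions), and in all but BM3 in 9 (11.8%, against 6.6%). No region had peaks in both WT luminal and neither WT basal-like library (1.17% of all), in both WT basal-like and neither WT luminal library (1.03%), or in all WT and at most 1 Lats1-CKO library (0.496%). In 21 regions a peak was found in BM4, BM7 or BM8 and in no WT library (27.6%, against 38.9% of all regions), and 15 of these were in Nedd9 (45.5% of its regions). In 7 regions it was found in WT libraries only (9.21%, against 16.5%).

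Whether the loss of Lats1 went with other accessibility of these promoters was asked by comparing 4 Lats1-CKO with 4 WT libraries. No promoter separated the genotypes: for each of the 10 genes the percentiles overlapped, where 0.398% of the 14571 genes were higher and 0.721% lower in all Lats1-CKO libraries. The difference of the means ranged from -7.34 (Ccne1) to 27.8 (Ccnd2), and its median was -1.29, against -1.28 over all genes tested. The smallest p was 0.0857 by the exact two-sided permutation test, whose smallest possible value is 0.0286, and each adjusted p was 1. Of the 7 luminal markers, Krt18 alone separated the genotypes. It was lower in all Lats1-CKO libraries (6.55 against 54.4, p = 0.0286 by the exact permutation test). Krt18 had no promoter peak in BM3, BM4 and BM8 and was at 26.2 in BM7. The summed percentile of 5 immune markers was 0 to 91.9 in WT and 0 to 167 in Lats1-CKO libraries, that of 4 endothelial markers 0 to 60.4 and 0 to 89.3, and Cd3e, Itgam and Cdh5 had no promoter peak in any library. The part of these cell types in the differences was not tested. Over all genes, 163 had an unadjusted p under 0.05 and 0 an adjusted one by this test.

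Without BM3, 3 of the 10 genes were higher in all 3 Lats1-CKO than in all 4 WT libraries, where 10.3% of all genes were higher and 0.79% lower. These were Ccnd1 (63.9 ± 2.05, n = 3, against 38.8 ± 17.2, n = 4; mean ± SD), Ccnd3 (91.2 ± 4.67 against 79 ± 4.2) and Myc (79.9 ± 8.33 against 63.5 ± 8.16). Each had p = 0.0571 by the exact two-sided permutation test and an adjusted p of 0.617. The median difference was 8.98 over the 10 genes and 4.84 over all genes. With equal numbers of peaks, the 50000 highest-scoring of each of these 7 libraries, the percentiles of all 3 genes overlapped, with differences of 9.39 (Ccnd1), 9.88 (Ccnd3) and 8.5 (Myc). Ccne1 was then lower in all 3 Lats1-CKO libraries, with a mean of 72 against 89.2 (p = 0.0571 by the exact permutation test, adjusted p = 0.791), where 4.28% of genes were lower and 2.71% higher. In percentile, Ccne1 was also lower in all 4 Lats1-CKO libraries when BM5 was left out (84.2 against 94.4, 1.6% of genes). By rank from the top this was not so, as BM3 (place 2576) was ahead of BM1 (4564) and BM2 (5844).

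Luminal and basal-like cells did not separate at any of the 10 promoters either, where 0.727% of all genes were higher and 0.206% lower in all basal-like libraries. Ccnd1 came nearest, with a mean of 58.9 in basal-like and 27.9 in luminal libraries, a difference of 31 (p = 0.0857 by the exact two-sided permutation test, adjusted p = 1), and BM7 was the luminal library that overlapped. The difference was 13 (p = 0.857 by the exact permutation test) within 5 kb of a TSS, and 0.148 (p = 0.857 by the same test) in log2 rank. In the 5 kb window BM3 had no peak and counted as 0. The other luminal libraries were there at 71.9 to 78.4 and the basal-like libraries at 58.2 to 77.4. Within 1 kb of a TSS and within each genotype, Ccnd1 was higher in both basal-like than in both luminal libraries. This gave p = 0.0556 by the exact permutation test within genotype, the smallest that its 36 rearrangements allow. In Lats1-CKO cells the nearest values were 63.6 (BM8, basal-like) and 62 (BM7, luminal), and BM3 had no peak. Among the 50000 highest-scoring peaks and without BM3 this order was lost, with Ccnd1 at 29.1 in BM7 and 27.8 in BM8. Myc differed by 26.4 (p = 0.171 by the exact permutation test). Without BM3 no promoter separated (0.728% of genes higher and 2.88% lower), and Ccnd1 differed by 21.7 and Myc by 10.2. Without BM7, which left BM1, BM3 and BM5 as luminal libraries, Ccnd1 (58.9 against 16.5) and Myc (74.9 against 38.4) were higher in all basal-like libraries, as were 4.05% of genes. Among the 50000 highest-scoring peaks and without BM3, Ccnb1 was lower in all basal-like libraries (86.3 against 92.6, 3.28% of genes). With all 8 libraries, of 6 fibroblast markers Pdgfra and Pdgfrb were higher in all basal-like libraries, and the others did not separate. Pdgfra and Pdgfrb each had p = 0.0286 by the exact permutation test, and no gene tested had an adjusted p under 0.05. For Pdgfra, BM1 (luminal) and BM2 (basal-like) were both at 78.7 as rounded, and BM3 (0) and BM5 (62.4) were low. The summed percentile of the list was 164 to 237 in basal-like and 0 (BM3) to 118 in luminal libraries, with no promoter peak at Col3a1 in any library. The part of these markers in the differences was not tested.

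With 2 libraries in each of the 4 groups, the change with genotype was described within each subpopulation and not tested. In basal-like cells, Lats1-CKO minus WT was 31.5 for Ccnd2, 17.4 for Ccnd3, 11.9 for Ccnd1 and 11.2 for Myc, and -9.38 for Ccne1 and -4.5 for Ccne2. In luminal cells it was 24 for Ccnd2, 6.33 for Ccnd1, -1.44 for Ccnd3 and -18.2 for Myc, where BM3 lacked the first, the second and the last of these peaks. The basal-like difference of Ccnd2 rested on BM4 (82.7), as BM8 had no promoter peak there.

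The other genes of the pathway were counted in the same way. Of 75 genes in 7 lists (CDKs, CDK inhibitors, pocket proteins and E2F factors, S phase, G2 and mitosis, Myc family and partners, and Nedd9 family and partners), 73 had a promoter peak. With all 8 libraries, Bub1, a spindle checkpoint kinase, was higher in all Lats1-CKO libraries (82.2 against 52.9) and Cenpe, a mitotic motor protein, was lower (75 against 91.4), each 1 of 73 (1.37%, beside 0.398% of all genes higher and 0.721% lower). The mean of Bub1 in WT included BM5, which had no peak, and the 3 other WT libraries were at 69.2 to 71.6. The mean of Cenpe in Lats1-CKO included BM3, at 48, and was 84 without it. Mybl2, a transcription factor of mitotic genes, was higher in all basal-like libraries (99.2 against 97.2), also 1 of 73, beside 0.727% of all genes. Its lowest basal-like value was 99 (BM8), against 98.9 in BM7, and the luminal mean was 98.1 without BM3. Bub1, Cenpe and Mybl2 each had p = 0.0286 by the exact permutation test and an adjusted p of 1. Without BM3, 10 of 73 (13.7%) were higher in Lats1-CKO cells, beside 10.3% of all genes: Cdk4, the partner of the D cyclins, the E2F genes E2f1 and E2f4, the licensing factor gene Cdt1, the mitotic genes Bub1, Bub1b and Tpx2 (Tpx2 activates Aurora A), Mycn, Mxd3 and Src. Their p was 0.0286 to 0.114 by the exact permutation test, and each adjusted p was 0.617. Cenpe was lower. Cdk6, Cdkn2a and Ptk2b were lower in all basal-like than in all luminal libraries, 3 of 73 (4.11%, beside 2.88% of all genes), with p = 0.0571, 0.171 and 0.0286 by the exact permutation test and an adjusted p of 1.

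The profiles of 4 of the genes over the 8 libraries were set beside those of all protein-coding genes by Euclidean distance of the percentiles, as a description. Nearest to Myc were Arid5a (12.8), Pja1 (15) and Terf2 (15.2), and nearest to Ccnd1 were Taf12 (19.2), Gm11444 (19.7) and Morc4 (20.5). Nedd9 was nearest to Cul5 (7.61), Arpc5 (7.64) and Vps8 (8.1), each of which had its lowest value in BM3. Nearest to Ccnd2 were Lrrtm3 (22.2), Cntnap5c (22.3) and Esam (24.5), which had peaks in BM4 and BM7 and in at most 1 other library.

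As promoters of the genome go, the 10 genes ranked high by their median, though not each of them. Their median percentile was 75.3 to 91.4 in the 7 libraries other than BM3, where that of all genes tested was 66 to 80.5, and 59.3 in BM3, against 7.46. Ccnd1 was below the median of all genes tested in every library, Ccnd2 in all but BM4, and Myc in all but BM4 and BM6. The value is the highest over all TSSs of a gene, of which these genes had 3 (Ccnd1) to 19 (Ccnd3). The effect of that number was not tested. All 10 had a promoter peak in BM4, BM6 and BM7, 9 in BM1, BM2, BM5 and BM8, and 7 in BM3. Of all genes tested, 76% (BM5) to 88.5% (BM7) had one in the 7 libraries other than BM3, and 51.7% in BM3. The order of mean percentile over the 8 libraries was Ccna2 (99.3), Ccnb1 (89.1), Ccne1 (87.8), Aurka (86.1), Nedd9 (85.9), Ccne2 (83.2), Ccnd3 (83), Myc (61.7), Ccnd1 (43.4) and Ccnd2 (18.8). Neighbors in this order from Ccnb1 to Ccnd3 changed places between libraries and their order cannot be resolved. Myc stood above Ccnd1 and Ccnd2 in each of the 7 libraries other than BM3, where none of the 3 had a promoter peak, and Ccnd2 stood above Ccnd1 in BM4 alone. The peaks of Ccna2, Ccnb1, Ccnd3, Ccne1, Aurka and Nedd9 were wider than the median of their library in all 8 libraries, those of Ccne2 in 7 of 8, Myc in 6 of 7, Ccnd1 in 2 of 7 and Ccnd2 in 1 of 3. How often the promoter peaks of other genes were wider was not counted.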

How the data were processed

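ATAC-seq peak lists of 8 libraries were analysed. Per the study's methods and processing notes, adapters were removed with cutadapt, unique alignments to mm10 were made with Bowtie 1.0.0, the alignments were cleared of mitochondrial and duplicate reads (Picard 2.3.0) and of long fragments, and peaks were called per library with MACS2 2.1.1.20160309, as the processing notes give it; the methods name an earlier version. Peaks on the ENCODE blacklist were removed. The authors deposited for each peak a score, an integer of 13 or more, which was judged from its values to be the MACS2 score. It depends on depth and is not normalized, so it was turned into a percentile within each library. No read counts were used here, so counting error has no interval here. The study discarded 1 Lats1-CKO luminal replicate for quality without naming it in its text.

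TSSs came from GENCODE M21, sequence from GRCm38.p6, which is the same build as mm10. A library had a peak at a promoter when at least 1 bp of it lay within 1 kb of a TSS. Genotypes and populations were compared by exact two-sided permutation tests of the promoter percentile over the 70 arrangements of 4 and 4 libraries (35 with 1 left out), adjusted by Benjamini-Hochberg over all genes with a promoter peak. The tests were tested on simulated data. The text names all 10 genes, genes of the pathway lists whose groups did not overlap, the strongest region of each locus and regions whose peaks followed the groups, and the 3 genes nearest in profile. The members and lists were chosen with earlier results of these data known. Scripts ran under Python 3.11.15 with pysam 0.24.0, pandas 2.3.3 and numpy 2.4.6. Alternatives were each library left out, the 10000 or 50000 highest-scoring peaks, other windows, other sets of TSSs, ranks on a log2 scale and arrangements within the other factor. Equal numbers of peaks without BM3 and 3 of the region patterns were added after the data had been seen.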

Additional observations from a re-analysis of the deposited data

Results flagged for a closer look

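In 7 cases 1 library lay far from the other 3 of its genotype or population, by the share of the group's range that separated it from its nearest neighbor (above Dixon's critical value for 4 values, which chance passes in about 1 of 20 groups). BM3 was the lowest Lats1-CKO library for Ccna2 (0.921), Ccnd1 (0.939) and Aurka (0.869) and the lowest luminal library for Ccnb1 (0.886). In these cases its promoter percentiles were 97.1, 0, 61.3 and 65.7, and BM3 had 14753 peaks against 51497 or more elsewhere. By rank from the top, BM3 lay within the other Lats1-CKO libraries for Ccna2 (place 422, against 210 to 448) and Aurka (5652, against 1661 to 6656). For Ccnb1 it was still the last luminal library (5002, against 3326 to 4128). Ccnd2 had a promoter peak in BM6 alone among WT (share 1) and in BM7 alone among luminal libraries (share 1). A share of 1 follows whenever the other 3 values are 0. BM1 was the highest luminal library for Ccne1 (0.907), at 93.7 against 82.4 to 83.4. The 7 cases were not set against the rate given above.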

How the results depend on the processing

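By the exact permutation test, no alternative gave an unadjusted p under 0.05 for any of the 10 genes, except that without BM7 Ccnd1 and Myc had p = 0.0286 by population (adjusted p = 0.788). With 1 library left out in turn, 0 to 3 genes did not overlap by genotype and 0 to 2 by population. The difference between genotypes then ranged from -0.768 to 0.109 (Ccna2), -8.99 to 1.25 (Ccnb1), -9.08 to 4.31 (Ccne2), -13.1 to 16.5 (Myc) and -6.16 to 7.12 (Nedd9), each positive only without BM3, and from -6.93 to 10.8 for Aurka, which was negative without BM4 (-1.4), BM5 (-6.93) or BM7 (-0.762). The difference between populations ranged from -0.0853 to 0.84 (Ccna2) and -4.24 to 6 (Ccnb1), negative only without BM3, and from -5.44 to 25.6 for Ccnd2, negative only without BM4. With the 10000 highest-scoring peaks, genotype differences turned to 9.4 (Ccne2), 0.762 (Myc) and 20.1 (Nedd9), and population differences to -0.299 (Ccna2), -28.2 (Ccnb1), -12.4 (Ccne2) and -0.671 (Nedd9). With the 50000 highest-scoring peaks and BM3 left out, they turned to 8.5 (Myc) and 5.15 (Nedd9) by genotype and to -0.15 (Ccna2), -6.33 (Ccnb1) and -1.69 (Ccne2) by population, and 1 gene did not overlap in each. On the log2 rank scale they turned to 0.246 (Ccne2), 0.43 (Myc) and 0.616 (Nedd9), and to -0.367 (Ccna2), -0.738 (Ccnb1), -0.122 (Ccnd2) and -0.345 (Ccne2). The 5 kb window turned Ccnd1 to -13.3 by genotype, with BM3 counted as 0. Regions in all libraries but BM3 numbered 5 in place of 9 among the 50000 highest-scoring peaks. The cause of these changes was not tested. Of 148 alternatives per comparison, 17 reversed the sign by genotype (7 genes) and 14 by population (5 genes). No paired analysis was possible because the labels pair no libraries.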
